A study of Mus musculus with 24 samples.

Results

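The genes described here encode the proteins of the mitochondrial ribosome and were taken by name: protein-coding genes of the deposited table whose symbol begins with Mrpl or Mrps followed by a digit. That rule found 78 genes among the 18723 genes of the table, 49 with an Mrpl symbol and 29 with an Mrps symbol, and used no measured value. By the known composition of the mammalian particle, 51 belong to the large subunit and 26 to the small subunit. The large-subunit count includes Mrps30 and Mrps18a, whose symbols name the small subunit. The remaining gene, Mrps36, carries a ribosomal name, but its product is an adaptor of the oxoglutarate dehydrogenase complex.

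The mitochondrial ribosome translates the few mRNAs that mitochondrial DNA encodes, all of them for membrane subunits of the oxidative phosphorylation complexes. All of its proteins are encoded in the nucleus, made in the cytosol and imported, whereas its ribosomal RNAs come from mitochondrial DNA. Some of the proteins have a counterpart in bacterial ribosomes, and others were added in the mitochondrial lineage. Tumours depend to differing degrees on this translation system for respiration, and no tumour cell can assemble the respiratory chain without it.

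RNA-seq libraries were made from 24 tumours of Lewis Lung Cancer cells, a mouse lung carcinoma line, grown in wild-type mice, with 8 tumours in each of 3 groups. Vehicle tumours were given vehicle. Dual tumours were given 50 ug of poly I:C, a double-stranded RNA analogue recognised by innate RNA sensors, injected into the tumour on days 11 and 15, and 100 ug of an antibody against the T cell checkpoint receptor PD-1 by the intraperitoneal route on days 7, 10 and 14. Triple tumours had both of these agents plus blockade of C5aR1, which binds the complement fragment C5a. The dosing protocol gives that blockade as PMX53, taken here as the C5aR1 blocker of the group label, at 1 mg/kg under the skin daily from day 6. No group received C5aR1 blockade alone or either other agent alone, so the 3 comparisons address the dual treatment, the triple treatment and the addition of C5aR1 blockade to the dual treatment. In tumour names the letter C, D or T stands for vehicle, dual or triple. The numbers that follow were taken here as those of the mouse and the library.

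Each tumour had between 14438318 and 19254090 reads in genes. Library numbers ran from 25 to 32 in vehicle, from 33 to 40 in dual and from 41 to 48 in triple tumours, so the order of the libraries and the treatment cannot be told apart. Markers of epithelial lung cells took between 0.00212% and 0.00667% of the reads in every tumour, and the lung markers Nkx2-1 and Sftpc were not analysed here. In bulk tumours, fewer cells of a type and less RNA per cell cannot be told apart. The triple tumours differed from each other in other cell types as well. Skeletal muscle markers (19 of 20 symbols measured) took 0.0133% to 0.0549% of the reads in vehicle tumours, 0.0226% to 0.0892% in dual tumours and 0.0220% to 0.255% in triple tumours, and 5 triple tumours exceeded every vehicle and dual tumour: T_352_S48, T_353_S45, T_354_S47, T_355_S43 and T_362_S42. Neutrophil markers (20 of 21 measured) took 0.0140% to 0.0250% of the reads in vehicle, 0.0772% to 0.164% in dual and 0.0502% to 0.380% in triple tumours. T cell markers, all 17 measured, took 0.00419% to 0.00978%, 0.00433% to 0.0114% and 0.00461% to 0.0242% in the same order.

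Levels were compared between genes as CPM, reads scaled to the size of the library, per kilobase of the union of annotated exons, with all 78 lengths matched. In vehicle tumours the median over the 78 genes was 24.2 CPM per kb. Mrpl33, the short counterpart of bacterial L33, was highest with 127 CPM per kb ± 12.7 (SD, n = 8) in vehicle, 112 ± 15.0 in dual and 102 ± 8.51 in triple tumours. Mrpl52, a mitochondrion-specific large-subunit protein, followed with 106 ± 8.36, 112 ± 12.6 and 105 ± 16.0 CPM per kb. Mrpl12, the counterpart of the bacterial stalk protein L7/L12 that recruits translation factors, was at 82.7 ± 20.3, 108 ± 25.8 and 66.4 ± 17.3 CPM per kb. In vehicle tumours Mrpl54 was next with 71.4 ± 12.2 CPM per kb. The ranges of mean ± SD overlapped between each of these 4 genes and the next in order, and in dual tumours Mrpl33 and Mrpl52 stood level.

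The lowest levels belonged to Mrps25 with 4.45 ± 0.428 CPM per kb in vehicle, Mrpl48 with 4.22 ± 0.320 and Mrpl53 with 0.470 ± 0.462 (SD, n = 8 each). The SDs of Mrps25 and Mrpl48 overlapped. Mrpl53 held between 0 and 17 reads in any tumour, with 0 reads in 2 triple tumours, and it shares 900 bases on the same strand with the predicted coding gene Gm42688. Its values therefore rest on few reads and are uncertain. Every other member had at least 68 reads in each tumour. The order depends on the length used, and 4 of the 10 highest members were also among the 10 highest by CPM without division by length.

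Summed over the 78 genes, the deposited values came to 2751 to 3467 CPM in vehicle tumours with a median of 2947, to 2785 to 3867 CPM in dual tumours with a median of 3210, and to 2280 to 3392 CPM in triple tumours with a median of 2847. The 3 ranges overlapped. The mean log2 CPM of the 78 genes ran from 4.93 to 5.22 in vehicle (median 5.02), from 4.91 to 5.36 in dual (median 5.11) and from 4.66 to 5.20 in triple tumours (median 4.95). Dual tumour D_344_S33 was the highest of the 24 for 34 members. Triple tumour T_352_S48 was the lowest for 33 members and T_355_S43 for 16, while T_354_S47, another muscle-rich triple tumour, was the highest for 13. The median SD of the 78 genes was 0.14 in vehicle, 0.19 in dual and 0.23 in triple tumours on the log2 scale. Over all genes with a mean log2 CPM between 4 and 6.7 it was 0.15, 0.18 and 0.26.

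**Figure D1:**
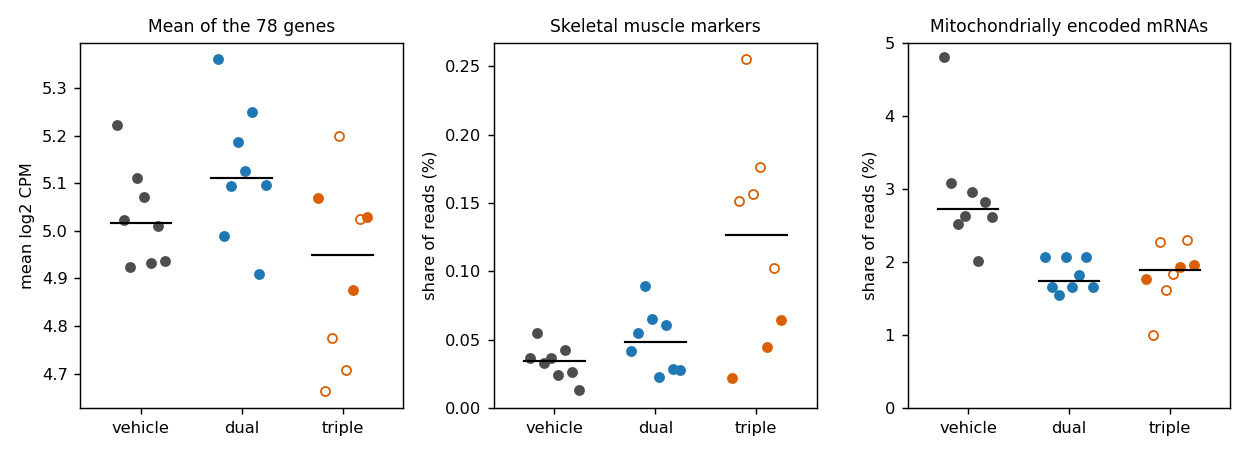
Mean log2 CPM of the 78 genes (left), share of reads from skeletal muscle markers (middle) and share of reads from the 11 measured mitochondrially encoded mRNAs (right), 1 point per tumour and 8 per group, with the group median as a line and the 5 muscle-rich triple tumours as open points. The mean of the 78 genes overlaps between the groups, and the 4 triple tumours from 4.66 to 4.88 lie below every vehicle and dual tumour, with 3 of them muscle-rich.

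In dual against vehicle tumours, 16 of the 78 genes were higher and 3 were lower at an adjusted p under 0.05 in limma with Benjamini-Hochberg adjustment over all genes. That is 20.5% of the members higher where 15.0% of all genes were, and 3.85% lower where 15.8% of all genes were. The median log2 fold change of the members was 0.10, beside -0.03 over all genes, and 62 of the 78 point estimates were above 0. The changes were small, with fold changes between -0.52 and 0.61 on the log2 scale. Tumours of the groups did not overlap for 6 members, Mrpl24, Mrpl30, Mrpl38, Mrps18b, Mrps2 and Mrps30, beside 9.46% of all genes. Mrpl38 was among them although its adjusted p was 0.0624.

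Mrps30 (chr13:118514917-118523788, minus strand, GRCm39), which encodes a large-subunit protein specific to mitochondria, had the largest increase. Its log2 CPM ran from 5.88 to 6.13 in vehicle tumours (median 6.01), from 6.36 to 6.74 in dual tumours (median 6.65) and from 5.18 to 6.59 in triple tumours (median 6.19). Every dual tumour lay above every vehicle tumour, and the triple tumours reached from below the vehicle range into the dual range. The log2 fold change in dual against vehicle was 0.61 with an SE of 0.13 and an adjusted p of 0.00108 (limma). Mrpl30 (chr1:37929558-37937616, plus strand), the counterpart of bacterial L30, ran from 5.34 to 5.62 in vehicle (median 5.56), from 5.72 to 6.06 in dual (median 5.97) and from 5.45 to 5.96 in triple tumours (median 5.64). All 8 dual tumours again lay above all vehicle tumours, by a log2 fold change of 0.39 with an SE of 0.07 (adjusted p 0.000268).

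Mrps18b was higher by 0.46 on the log2 scale (SE 0.13, adjusted p 0.00845), with 4.86 to 5.20 in vehicle and 5.27 to 5.71 in dual tumours and no overlap. It is a paralogue of bacterial S18 that sits at another place of the small subunit. Mrps2, the counterpart of bacterial S2, ran from 5.43 to 5.74 in vehicle and from 5.76 to 6.10 in dual tumours and was higher by 0.37 (SE 0.10, adjusted p 0.00832). Mrpl35, the counterpart of bacterial L35, was higher by 0.35 (SE 0.09, adjusted p 0.00584), and Mrpl39, a mitochondrion-specific protein, by 0.29 (SE 0.07, adjusted p 0.00271), each in 8 of 8 dual tumours above the vehicle median. The other 10 increases were those of Mrpl13, Mrpl15, Mrpl16, Mrpl19, Mrpl21, Mrpl42, Mrpl44, Mrpl55, Mrps10 and Mrps17. They lay between 0.21 and 0.39 on the log2 scale.

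Neutrophil markers moved with the dual treatment: 19 of the 20 measured were higher in dual than in vehicle tumours, with a median log2 fold change of 3.46, and the ranges of their summed share did not overlap. Without a neutrophil score in the model, 16 of the 78 members and 2803 of the 18723 genes were higher in dual than in vehicle tumours. With the neutrophil score in the model, 9 members and 2223 of all genes were higher. The adjusted p was then 0.209 for Mrpl30 (0.29), 0.0703 for Mrpl39 (0.40), 0.057 for Mrps18b (0.77), 0.384 for Mrpl44 (0.22) and 0.324 for Mrpl41 (-0.42), which is described next, with the log2 fold change in brackets. Mrps30, Mrps2, Mrpl35 and Mrpl24 kept their calls. Because the neutrophil shares of the 2 groups do not overlap, kept or lost calls cannot tell the score and the treatment apart. With a proliferation score in the model instead, fewer members were higher than without it, as counted in the closing section, beside 2777 of all genes. All 20 proliferation markers had a positive estimate in dual against vehicle tumours, and 6 were called higher. The part of neutrophils or of proliferation in these changes was not tested.

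Mrpl24 (chr3:87826813-87830979, plus strand), the counterpart of bacterial L24, had the largest decrease and the smallest p. Its log2 CPM ran from 5.96 to 6.27 in vehicle tumours (median 6.10), from 5.42 to 5.71 in dual tumours (median 5.63) and from 5.37 to 5.89 in triple tumours (median 5.62). All 16 treated tumours lay below all 8 vehicle tumours. The log2 fold change was -0.52 in dual against vehicle (SE 0.07, adjusted p 1.64e-05). Mrpl41 fell by 0.40 (SE 0.13, adjusted p 0.0222), a call that was lost without C_339_S25 (adjusted p 0.052) or without D_357_S37 (0.0564). Mrpl48, which encodes a mitochondrion-specific protein, fell by 0.22 (SE 0.08, adjusted p 0.0391), and leaving out any of 11 tumours ended that call. Mrpl23, Mrpl54 and Mrps21, next by p, had fold changes of -0.30, -0.28 and -0.23 with adjusted p of 0.0647, 0.0812 and 0.0906.

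In triple against vehicle tumours the direction of the calls was different: 6 members were higher and 17 were lower. That is 7.69% of the members higher where 23.0% of all genes were, and 21.8% lower where 22.8% of all genes were, so the share of lower calls was near the background. The median log2 fold change of the members was -0.09, beside -0.02 over all genes. It was 0.02 without the 5 muscle-rich triple tumours, which left 3 triple tumours, and 0.07 with the neutrophil score as a covariate. Tumours of the groups did not overlap for 4 members, Mrpl24, Mrpl41, Mrps15 and Mrps33, beside 9.85% of all genes.

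Mrpl41 (chr2:24864129-24865110, minus strand), which encodes a mitochondrion-specific protein of the large subunit, fell most. Its log2 CPM ran from 4.67 to 5.46 in vehicle tumours (median 4.97), from 4.10 to 5.23 in dual tumours (median 4.62) and from 3.76 to 4.41 in triple tumours (median 4.13). Every triple tumour lay below every vehicle tumour, and the dual tumours overlapped both groups. The log2 fold change in triple against vehicle was -0.90 with an SE of 0.13 and an adjusted p of 1.25e-05. Mrps33 (chr6:39778738-39787922, minus strand), which encodes a mitochondrion-specific protein of the small subunit, ran from 2.85 to 3.44 in vehicle (median 3.09), from 2.52 to 3.33 in dual (median 2.97) and from 2.09 to 2.67 in triple tumours (median 2.34). Its triple tumours also lay wholly below the vehicle tumours, with a log2 fold change of -0.77 (SE 0.12, adjusted p 2.92e-05).

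Mrpl24 was lower in triple than in vehicle tumours by nearly as much as in dual tumours, with a log2 fold change of -0.47 (SE 0.07, adjusted p 2.72e-05). Mrpl17, the counterpart of bacterial L17, fell by 0.43 (SE 0.09, adjusted p 0.000789), Mrpl33 by 0.31 (SE 0.08, adjusted p 0.00324) and Mrps14, the counterpart of bacterial S14, by 0.36 (SE 0.10, adjusted p 0.004), each with 0 of 8 triple tumours above the vehicle median. Mrpl11, the counterpart of the L11 protein at the base of the stalk, fell by 0.44 (SE 0.13, adjusted p 0.00749), a call lost without the muscle-rich triple tumours (adjusted p 0.114). Mrps6, the counterpart of bacterial S6, fell by 0.63 (SE 0.18, adjusted p 0.00575), with log2 CPM from 5.06 to 5.46 in vehicle and from 3.51 to 5.15 in triple tumours, so that the groups overlapped. With the muscle score in the model its fold change was -0.38 (adjusted p 0.21), and with the neutrophil score it turned to 0.47 (adjusted p 0.406). With that score in the model 1 member was lower and 1 higher. The adjusted p was then 0.0683 for Mrpl41, 0.128 for Mrps33, 0.334 for Mrpl17, 0.0849 for Mrpl33 and 0.175 for Mrps14. Mrps6 also shares 29152 bases on the same strand with Slc5a3, a myo-inositol transporter gene, so its reads are uncertain.

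The 6 increases in triple against vehicle tumours were those of Mrps2 (0.32 on the log2 scale, SE 0.10, adjusted p 0.0129), Mrps18a (0.30, SE 0.09, adjusted p 0.00592), Mrps15 (0.30, SE 0.09, adjusted p 0.00634), Mrpl42 (0.29, SE 0.09, adjusted p 0.00787), Mrpl39 (0.25, SE 0.07, adjusted p 0.00522) and Mrpl55 (0.22, SE 0.09, adjusted p 0.0375). Mrps15, the counterpart of bacterial S15, ran from 4.59 to 4.89 in vehicle, from 4.55 to 5.14 in dual and from 4.94 to 5.50 in triple tumours, with no overlap of triple and vehicle. Without the muscle-rich triple tumours the adjusted p was 0.129 for Mrps15, 0.153 for Mrpl42 and 0.137 for Mrpl55. Mrpl55 also lost its call without any of 7 single tumours, and Mrpl39, Mrps2 and Mrpl55 lost theirs when each tumour was centred on the median of all genes (adjusted p 0.0821, 0.091 and 0.165).

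In triple against dual tumours, 21 of the 78 genes were lower and 0 were higher in limma. That is 26.9% of the members lower where 9.97% of all genes were, and no member higher where 11.4% of all genes were. At an unadjusted p under 0.05, 37 members were lower and 1, Mrpl4, was higher, where 18.4% of all genes were lower and 19.8% higher by that measure. Mrpl4 had a log2 fold change of 0.20 (SE 0.07, adjusted p 0.0538) and passed the threshold under 5 of the alternative settings and without any of 3 single tumours. The median log2 fold change of the members was -0.20, beside -0.004 over all genes, and 68 of the 78 point estimates were below 0. Tumours of the dual and triple groups overlapped for every member, as they did for all but 0.475% of all genes.

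Mrps33 had the smallest p, with a log2 fold change of -0.58 in triple against dual tumours (SE 0.12, adjusted p 0.0057). Mrpl12 (chr11:120375439-120379891, plus strand) had the largest called decrease. The human protein also binds the mitochondrial RNA polymerase. Its log2 CPM ran from 6.27 to 7.34 in vehicle tumours (median 6.67), from 6.82 to 7.71 in dual tumours (median 7.06) and from 5.70 to 6.85 in triple tumours (median 6.45). The dual and triple ranges met only between 6.82 and 6.85, and the vehicle tumours spanned most of both. The log2 fold change in triple against dual was -0.72 with an SE of 0.17 and an adjusted p of 0.0081, while the fold changes of the dual and triple groups against vehicle, 0.39 and -0.33, did not pass the test (adjusted p 0.0807 and 0.107).

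Mrpl19, the counterpart of bacterial L19 at the interface of the subunits, ran from 5.49 to 5.91 in vehicle, from 5.88 to 6.19 in dual and from 4.79 to 5.89 in triple tumours. It was higher in dual than in vehicle tumours by 0.34 (SE 0.11, adjusted p 0.0213) and fell by 0.51 in triple against dual tumours (SE 0.11, adjusted p 0.00611). Mrps30 fell by 0.49 (SE 0.13, adjusted p 0.0142) and Mrpl41 by 0.50 (SE 0.13, adjusted p 0.0138). Mrpl17 fell by 0.43 (SE 0.09, adjusted p 0.00666), Mrpl36, the counterpart of bacterial L36, by 0.38 (SE 0.09, adjusted p 0.00997) and Mrpl50, a mitochondrion-specific protein, by 0.40 (SE 0.10, adjusted p 0.0108). For each of these 6 genes all 8 triple tumours lay below the dual median. The other 13 decreases, those of Mrpl3, Mrpl15, Mrpl20, Mrpl22, Mrpl30, Mrpl47, Mrpl57, Mrps16, Mrps18b, Mrps22, Mrps24, Mrps27 and Mrps31, lay between -0.42 and -0.25.

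Skeletal muscle markers also differed between the dual and triple tumours. Of the 19 markers measured, 9 were higher in triple than in dual tumours and 19 had a positive estimate, with a median log2 fold change of 1.09. With the muscle score as a covariate, 0 members were lower in limma at an adjusted p under 0.05 and 20 at an unadjusted p under 0.05, beside 8.48% of all genes by the latter measure. At the adjusted threshold the whole table then had 9 genes higher and 3 lower, and the median of the members was -0.17, with 69 of the 78 below 0. Without the 5 muscle-rich triple tumours, 0 members were lower in limma and 12 at an unadjusted p under 0.05, beside 5.46% of all genes by the latter measure. At the adjusted threshold the whole table then had 2 genes higher and 0 lower, and the median of the members was -0.11, with 67 of the 78 below 0. The fold changes without them were -0.64 for Mrps33, -0.47 for Mrpl12, -0.41 for Mrpl41, -0.35 for Mrpl17, -0.26 for Mrpl19 and -0.20 for Mrps30, with adjusted p between 0.284 and 0.515. T cell markers were also higher in triple than in dual tumours, 14 of 17, and macrophage markers, 8 of 12. The part of these cell types in the decreases was not tested.

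**Figure D2:**
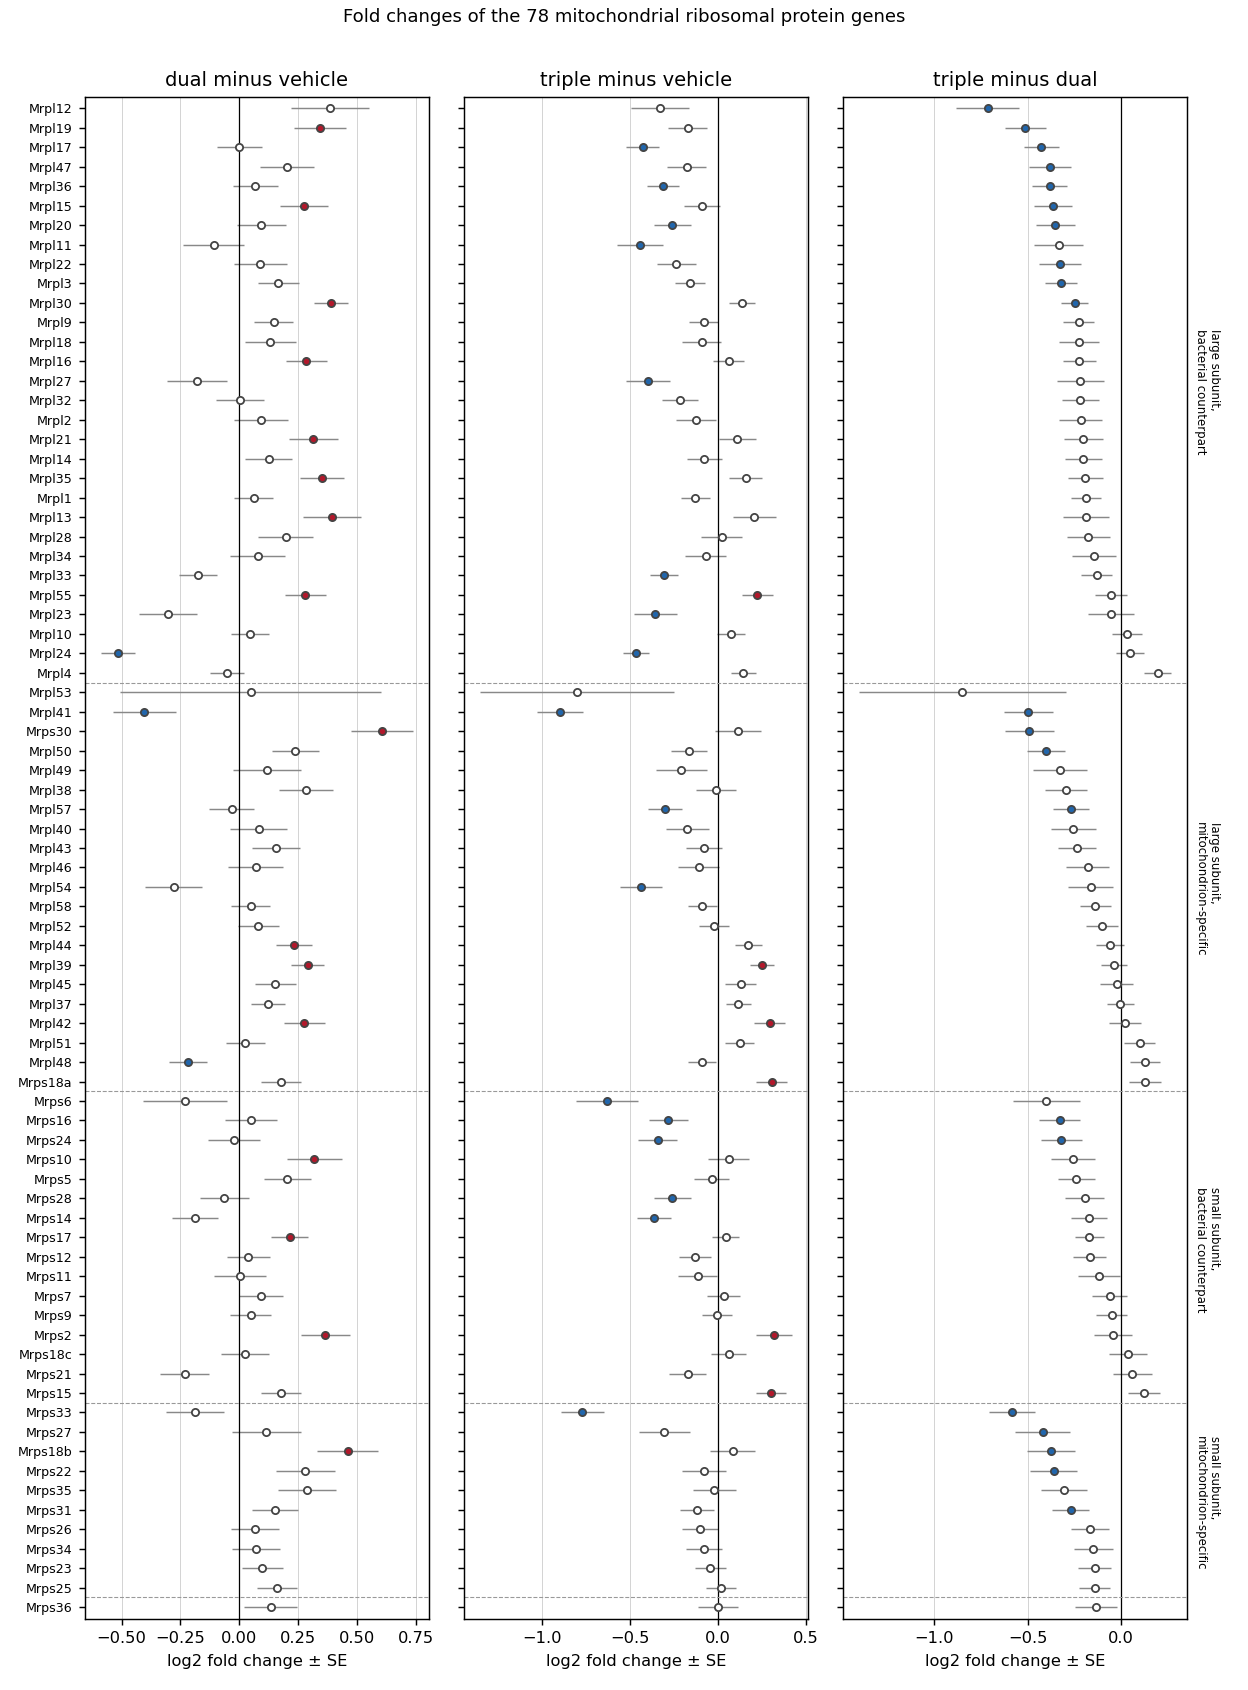
Log2 fold changes of the 78 genes in the 3 comparisons, with bars of 1 SE and genes grouped by subunit and origin (Mrps36, no ribosomal protein, is last). Filled points passed an adjusted p under 0.05 in limma (red higher, blue lower): 16 higher and 3 lower in dual against vehicle, 6 and 17 in triple against vehicle, 0 and 21 in triple against dual.

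Read across the comparisons, 34 of the 78 genes were called in none. Of the 16 genes higher in dual than in vehicle tumours, 5 were lower again in triple than in dual tumours (Mrpl15, Mrpl19, Mrpl30, Mrps18b and Mrps30), 4 were also higher in triple than in vehicle tumours (Mrpl39, Mrpl42, Mrpl55 and Mrps2), and 7 were called in dual against vehicle only. The call of Mrps18b in triple against dual tumours (-0.38, SE 0.13, adjusted p 0.0397) was lost without any of 10 single tumours, without the variance trend (adjusted p 0.0509) and in the fit on those 2 groups (0.0996). Mrpl41 was lower in all 3 comparisons, and Mrpl24 in both comparisons with vehicle. Lower in triple tumours than in either other group were 7 further genes, Mrpl17, Mrpl20, Mrpl36, Mrpl57, Mrps16, Mrps24 and Mrps33. The comparisons share tumours, so calls in one bear on calls in another.

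Calls were counted by subunit. Of the 51 large-subunit genes, 12 were higher and 3 lower in dual against vehicle, 4 and 11 in triple against vehicle, and 0 and 14 in triple against dual tumours. Of the 26 small-subunit genes, 4 were higher and 0 lower, 2 and 6, and 0 and 7 in the same order. In percent these were 23.5 and 5.88, 7.84 and 21.6, and 0.0 and 27.5 of the large subunit. For the small subunit they were 15.4 and 0.0, 7.69 and 23.1, and 0.0 and 26.9. All genes had 15.0 and 15.8, 23.0 and 22.8, and 11.4 and 9.97. Lower calls in triple against vehicle tumours were thus near the background in both subunits. The medians in triple against dual tumours were -0.22 for the large and -0.17 for the small subunit. By origin, the lower calls in triple against dual tumours were set beside 9.97% of all genes. They held 10 of the 30 large-subunit genes with a bacterial counterpart (33.3%) and 4 of the 21 specific to mitochondria (19.0%). In the small subunit they held 2 of the 16 with a bacterial counterpart (12.5%) and 5 of the 10 specific to mitochondria (50.0%). A difference between these classes was not tested.

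**Figure D3:**
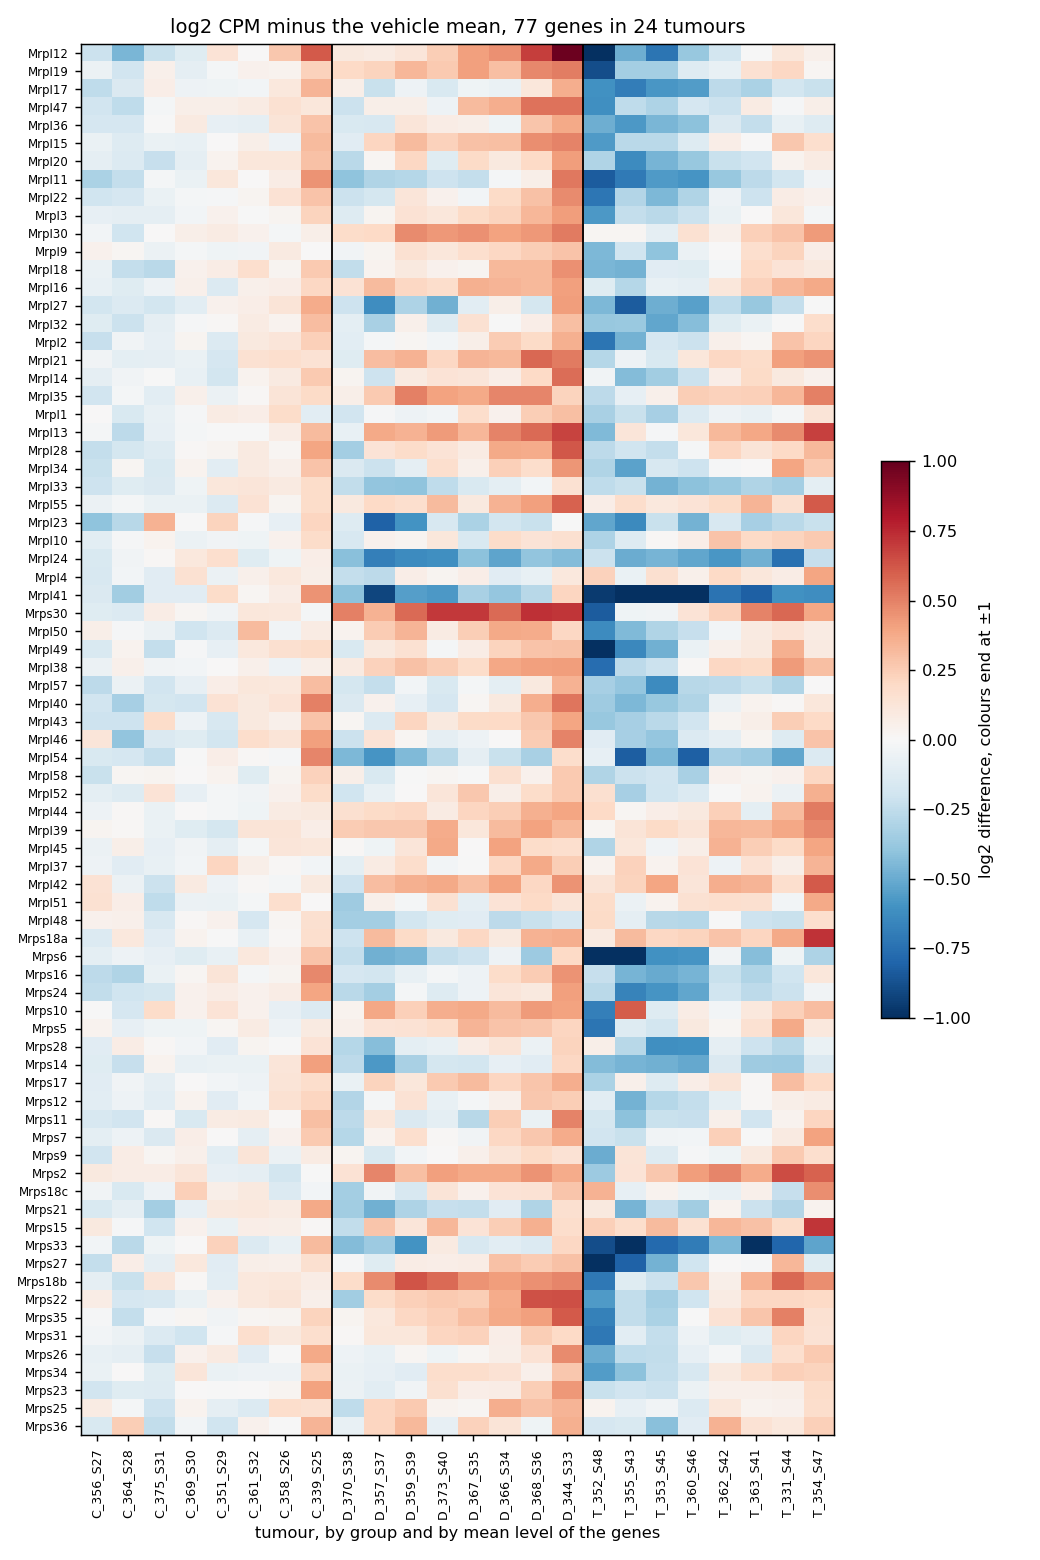
Log2 CPM minus the mean of the 8 vehicle tumours for 77 genes (Mrpl53 is left out for its few reads) in 24 tumours, with tumours ordered within a group by the mean of the genes and colours that end at 1 on either side. Mrpl24 and Mrps33 are blue in the triple tumours, Mrps30 is red in the dual tumours, and T_352_S48, the leftmost triple tumour, is blue in most rows.

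**Figure D4:**
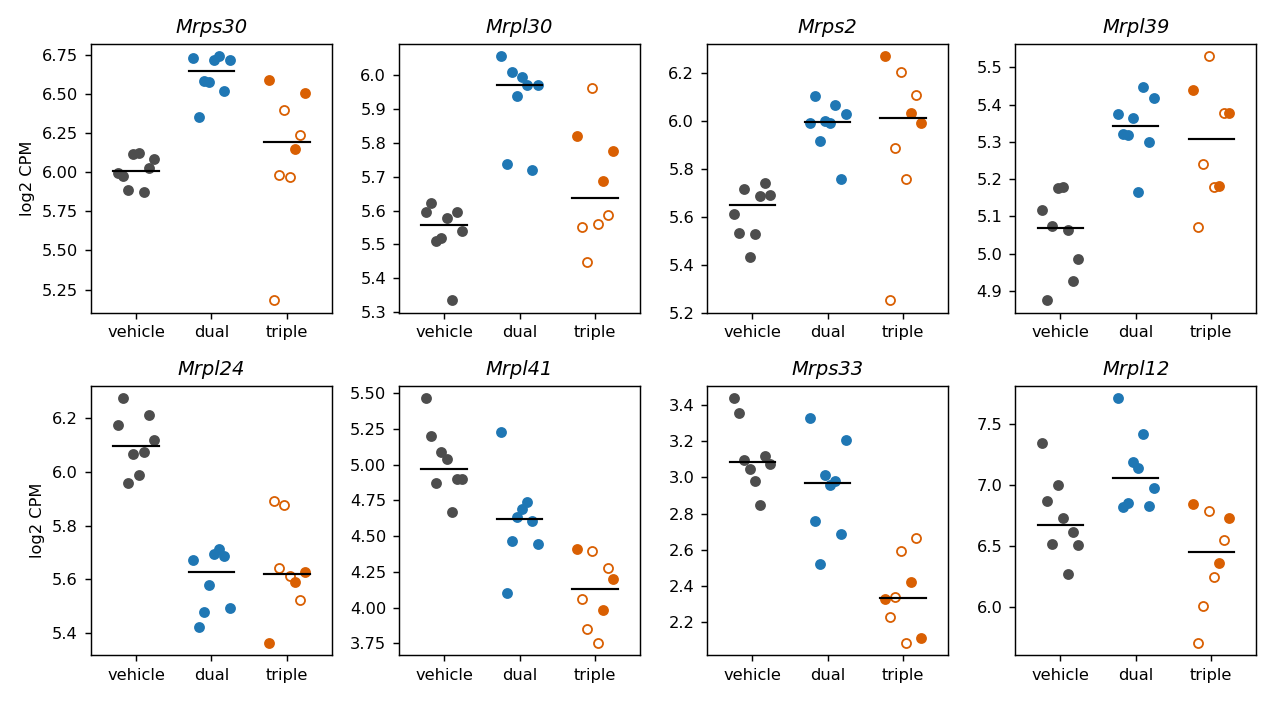
Log2 CPM of 8 members in each tumour, with the group median as a line and the 5 muscle-rich triple tumours as open points. Mrps30, Mrpl30 and Mrps2 lie higher in every dual than in every vehicle tumour, Mrpl24 lies lower in all 16 treated tumours, and Mrpl41 and Mrps33 lie lower in every triple than in every vehicle tumour.

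Several members have a role beyond structure. The 3 paralogues of bacterial S18 had these calls, with no test between them: Mrps18a, in the large subunit, was higher in triple than in vehicle tumours, Mrps18b was higher in dual than in vehicle tumours and lower in triple than in dual tumours, and Mrps18c, at the place of S18 in the small subunit, was called in none (0.03, 0.06 and 0.03 on the log2 scale, adjusted p 0.874, 0.654 and 0.825). Mrpl58, a peptidyl-tRNA hydrolase that frees stalled ribosomes, had fold changes of 0.05, -0.09 and -0.14 (adjusted p 0.694, 0.384 and 0.219). Mrpl45, which lies at the polypeptide exit and ties the ribosome to the inner membrane, had 0.15, 0.13 and -0.02 (adjusted p 0.19, 0.232 and 0.863). Neither was called in any comparison. Mrpl44, which has a ribonuclease III-like fold, was higher in dual than in vehicle tumours by 0.23 (SE 0.08, adjusted p 0.0242).

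Mrps27, a pentatricopeptide repeat protein of the small subunit, was lower in triple than in dual tumours by a log2 fold change of -0.42 (SE 0.15, adjusted p 0.0413), and 8 single tumours ended that call when left out. Mrps12, the counterpart of the S12 protein of the decoding centre, had 0.04, -0.13 and -0.17 (adjusted p 0.78, 0.242 and 0.167), and Mrps34, a mitochondrion-specific small-subunit protein, had 0.07, -0.08 and -0.15 (adjusted p 0.643, 0.553 and 0.294). Mrps36, the dehydrogenase adaptor, had 0.13, 0.00 and -0.13 (adjusted p 0.4, 0.992 and 0.397). These last 3 were called in none of the comparisons. Another gene of the table overlaps 34 of the members, 7 of them on the same strand. The library kit keeps strand, and the sources used here do not give the strand setting of the counting.

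Promoters were compared because so many members lay on the same side of 0 in triple against dual tumours. RefSeq promoter sequences (build GRCm38.p6, 250 bases before to 50 after the start) matched 69 of the 78 members. No entry was matched for Mrpl13, Mrpl15, Mrpl19, Mrpl38, Mrpl4, Mrpl54, Mrps28, Mrps34 and Mrps35. Runs of letters known for factors that bind the promoters of nuclear genes for mitochondrial proteins were searched on both strands: GCGCATGCG for NRF1, CCGGAAGT for ETS factors such as GABP, AAGATGGCG for YY1 and CACGTG, the E-box read by MYC and MAX. GCGCATGCG stood in 7 members (10.1%), beside 1.95% of the 27025 genes of the RefSeq table and 3.66% of the coding genes measured here. CCGGAAGT stood in 12 members (17.4%, beside 4.31% and 8.19%) and AAGATGGCG in 8 (11.6%, beside 1.64% and 3.13%). CACGTG stood in 5 (7.25%, beside 8.09% and 11.1%). A match is a run of letters and does not show binding.

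Shown are promoter starts of genes that were lower in triple than in dual tumours, chosen after their values were seen because they hold these runs, and that of Mrpl24, which had the smallest p of the members in dual against vehicle tumours and holds none. Each runs 5′ to 3′ on the strand of the gene from 100 bases before to 50 after the start, and the capitals mark the runs.
Mrpl17: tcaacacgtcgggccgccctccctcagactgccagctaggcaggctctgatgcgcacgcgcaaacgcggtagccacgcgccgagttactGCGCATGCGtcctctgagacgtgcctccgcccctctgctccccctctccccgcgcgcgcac
Mrpl22: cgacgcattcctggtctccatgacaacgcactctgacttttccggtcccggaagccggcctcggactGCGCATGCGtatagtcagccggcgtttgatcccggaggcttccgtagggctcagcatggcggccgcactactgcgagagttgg
Mrps22: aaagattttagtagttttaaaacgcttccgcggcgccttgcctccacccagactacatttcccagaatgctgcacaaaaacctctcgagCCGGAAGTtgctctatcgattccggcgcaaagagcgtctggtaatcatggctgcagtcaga
Mrps27: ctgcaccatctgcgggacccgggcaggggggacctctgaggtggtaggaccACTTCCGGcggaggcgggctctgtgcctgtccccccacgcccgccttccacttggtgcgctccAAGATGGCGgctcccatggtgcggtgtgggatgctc
Mrps24: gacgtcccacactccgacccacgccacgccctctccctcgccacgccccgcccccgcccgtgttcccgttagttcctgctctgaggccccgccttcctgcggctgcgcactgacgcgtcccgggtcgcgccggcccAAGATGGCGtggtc
Mrpl36: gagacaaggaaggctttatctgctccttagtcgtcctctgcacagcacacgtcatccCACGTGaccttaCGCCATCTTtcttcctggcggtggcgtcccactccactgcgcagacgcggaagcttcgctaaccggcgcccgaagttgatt
Mrpl24: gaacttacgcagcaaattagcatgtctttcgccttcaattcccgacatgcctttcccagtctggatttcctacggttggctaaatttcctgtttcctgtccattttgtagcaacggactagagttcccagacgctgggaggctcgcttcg

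In GRCm38.p6 these stretches lie at chr7:105811038-105811187 on the minus strand (Mrpl17), chr11:58171564-58171713 on the plus strand (Mrpl22), chr9:98601630-98601779 on the minus strand (Mrps22), chr13:99344686-99344835 on the plus strand (Mrps27), chr11:5707652-5707801 on the minus strand (Mrps24), chr13:73330909-73331058 on the plus strand (Mrpl36) and chr3:87919444-87919593 on the plus strand (Mrpl24). The NRF1 run of Mrpl17 begins 11 bases before the start and that of Mrpl22 begins 33 bases before it. Mrps27 holds the ETS run, read on the opposite strand, and the YY1 run, and Mrpl36 holds the E-box and, read on the opposite strand, the YY1 run. Among members with a promoter entry, GCGCATGCG stood in 3 of the 19 genes lower in triple than in dual tumours (15.8%) and in 4 of the other 50 (8.0%). CCGGAAGT stood in 3 of 19 (15.8%) and 9 of 50 (18.0%), AAGATGGCG in 3 of 19 (15.8%) and 5 of 50 (10.0%), and CACGTG in 2 of 19 (10.5%) and 3 of 50 (6.0%). A difference between these sets was not tested.

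The genes of factors that read such runs were measured too. Myc had log2 fold changes of 1.64 in dual against vehicle tumours (SE 0.23, adjusted p 1.63e-05), 0.91 in triple against vehicle (SE 0.23, adjusted p 0.00301) and -0.74 in triple against dual (SE 0.23, adjusted p 0.0295). Pprc1, a coactivator of the PGC-1 family that works with NRF1, had 0.74, 0.38 and -0.36 (adjusted p 8.45e-05, 0.0149 and 0.0399). Gabpa, the DNA-binding chain of GABP, fell by 0.33 in triple against vehicle tumours (SE 0.08, adjusted p 0.00094), and Nrf1 was higher by 0.26 in dual against vehicle (SE 0.08, adjusted p 0.0153). Of the 10 regulators listed, 6 were higher in dual and 5 in triple than in vehicle tumours, and 2 were lower in triple than in dual tumours.

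Other proteins of the same particle carry names without Mrp. All 5 measured, Dap3, Aurkaip1, Ptcd3, Gadd45gip1 and Chchd1, were lower in triple than in dual tumours, with fold changes of -0.26 (adjusted p 0.0128), -0.25 (0.0483), -0.45 (0.0256), -0.40 (0.0225) and -0.46 (0.0192) on the log2 scale. Dap3 and Ptcd3 belong to the small subunit, with Aurkaip1 and Chchd1, and Gadd45gip1 to the large subunit. Against vehicle, Ptcd3 was higher in dual tumours by 0.36 (SE 0.14, adjusted p 0.0462) and Chchd1 fell by 0.36 in triple tumours (SE 0.13, adjusted p 0.0306).

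Of 27 genes that assemble the ribosome or mature its RNA, 4 were higher and 1 lower in dual than in vehicle tumours, 3 were higher and 10 lower in triple than in vehicle tumours, and 10 were lower in triple than in dual tumours. Afg3l2, a protease of the inner membrane that processes Mrpl32, was higher by 0.51 in dual (SE 0.07, adjusted p 1.77e-05) and by 0.35 in triple (SE 0.07, adjusted p 0.00046) than in vehicle tumours. Ddx28, an RNA helicase of large-subunit assembly, was higher by 0.62 in dual against vehicle (SE 0.10, adjusted p 8.94e-05). Malsu1, an assembly factor of the large subunit, fell by 0.60 in triple against vehicle (SE 0.10, adjusted p 6.48e-05), and Rcc1l fell by 0.64 in triple against dual (SE 0.13, adjusted p 0.00534). Mterf4, which guides the rRNA methyltransferase Nsun4, fell by 0.54 in triple against vehicle (SE 0.10, adjusted p 0.000123).

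Of 17 translation factors, 5 were higher and 3 lower in dual than in vehicle tumours, 2 and 5 in triple than in vehicle tumours, and 2 were lower in triple than in dual tumours. In percent these were 29.4 and 17.6, 11.8 and 29.4, and 0.0 and 11.8. All genes had 15.0 and 15.8, 23.0 and 22.8, and 11.4 and 9.97, so the lower calls in triple against dual tumours were near the background. Gfm1, an elongation factor, was higher by 0.33 in dual against vehicle (SE 0.10, adjusted p 0.0101). Slirp, which stabilises mitochondrial mRNAs together with Lrpprc, fell by 0.51 in triple against vehicle (SE 0.09, adjusted p 0.000118) and by 0.48 in triple against dual (SE 0.09, adjusted p 0.00481). Of 20 mitochondrial aminoacyl-tRNA synthetases and amidotransferase subunits, 5 were higher and 1 lower in dual than in vehicle, 2 and 3 in triple than in vehicle, and 6 were lower in triple than in dual tumours, with Yars2 at -0.55 (SE 0.11, adjusted p 0.00471) and Nars2 at -0.39 (SE 0.09, adjusted p 0.00921).

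The mRNAs that this ribosome translates had another pattern. Of the 11 mitochondrially encoded protein genes measured, 6 were lower in dual and 8 in triple than in vehicle tumours, with medians of -0.78 and -0.68 on the log2 scale. Those are 54.5% and 72.7%, beside 15.8% and 22.8% of all genes. These counts include mt-Co2, mt-Atp6, mt-Co3 and mt-Nd3, which had few reads, with group means of log2 CPM from -2.85 to -1.31, and mt-Co3 is among the 8. Of the other 7 genes, 6 were lower in dual and 7 in triple than in vehicle tumours, with medians of -0.64 and -0.68. All 11 together, of 13 such genes listed, took 2.02% to 4.81% of the reads in vehicle tumours (median 2.73%), 1.54% to 2.07% in dual (median 1.75%) and 1.00% to 2.31% in triple tumours (median 1.88%). That share rests almost wholly on the 7 genes with more reads and is not that of all mitochondrial mRNAs. In triple against dual tumours their median was -0.02. mt-Nd5, a subunit of complex I, fell by 0.83 in dual (SE 0.16, adjusted p 0.000268) and by 0.85 in triple tumours (SE 0.16, adjusted p 0.00013), while mt-Nd4 fell by 0.78 in dual tumours (SE 0.15, adjusted p 0.000285) and mt-Nd6 by 1.07 in triple tumours (SE 0.20, adjusted p 0.000139). Of 12 genes that copy and transcribe mitochondrial DNA, Tfb2m fell by 0.29 in triple against vehicle (SE 0.11, adjusted p 0.0373), and Ssbp1 and Tfam fell by 0.32 and 0.37 in triple against dual tumours (adjusted p 0.0186 and 0.0208). Of 85 nuclear genes for oxidative phosphorylation subunits, 3 were higher and 10 lower in dual than in vehicle tumours, 8 and 30 in triple than in vehicle tumours, and 1 and 12 in triple than in dual tumours. In percent these were 3.53 and 11.8, 9.41 and 35.3, and 1.18 and 14.1. All genes had 15.0 and 15.8, 23.0 and 22.8, and 11.4 and 9.97.

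Genes for proteins of the cytosolic ribosome were measured for comparison. Of 83 genes, 2 were higher in dual and 1 in triple than in vehicle tumours (2.41% and 1.2%, beside 15.0% and 23.0% of all genes). In triple than in vehicle tumours 59 were lower with a median of -0.37, and 68 were lower in triple than in dual tumours with a median of -0.41. These are 71.1% and 81.9%, beside 22.8% and 9.97% of all genes. Rpl22l1 had the smallest p in triple against vehicle and in triple against dual tumours, with -1.39 (SE 0.19, adjusted p 4.86e-06) and -1.05 (SE 0.19, adjusted p 0.00425). Many cytosolic ribosomal protein genes have near-identical processed copies, and their reads are less certain. Of 10 genes for mitochondrial chaperones, proteases and stress factors, 7 were higher in dual and 6 in triple than in vehicle tumours, and 4 were lower in triple than in dual tumours. Hspa9, the matrix chaperone of protein import, was higher by 0.85 in dual against vehicle (SE 0.14, adjusted p 6.91e-05), and Ddit3, a stress transcription factor, by 1.34 in triple against vehicle (SE 0.16, adjusted p 1.09e-06). A difference between any of these lists and the 78 genes was not tested.

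**Figure D5:**
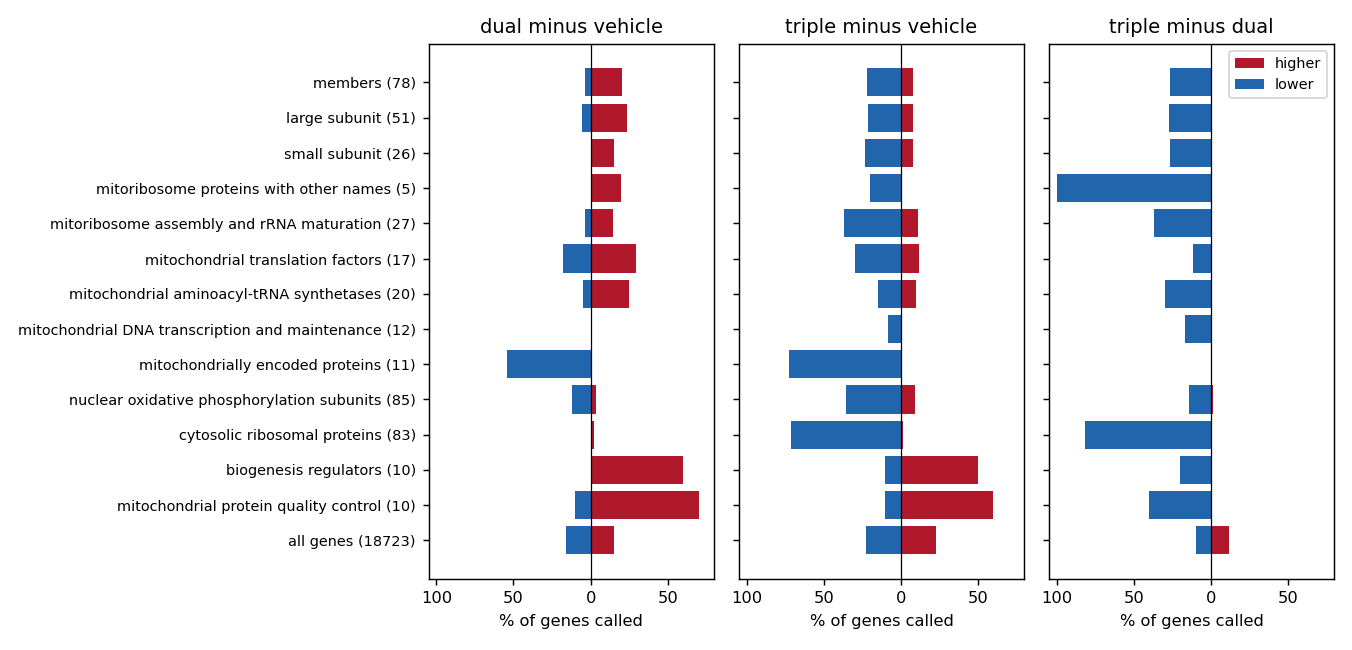
Share of the genes of each list called higher (red, to the right) or lower (blue, to the left) at an adjusted p under 0.05 in the 3 comparisons, with the number of genes measured in brackets; "members" are the 78 genes and the last row is the whole table. The 78 genes have 26.9% lower in triple against dual tumours beside 9.97% of all genes, and the cytosolic ribosomal proteins have 81.9%.

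Within groups, the members moved together across tumours. With each value centred on its group mean, the correlation of a member with the mean standardised value of the members, over 24 tumours, had a median of 0.786 and was over 0.5 for 69 of the 78. It was lowest for Mrpl53 (-0.045), Mrpl24 (0.053) and Mrpl48 (0.245), and highest for Mrpl28 (0.935), Mrpl22 (0.931) and Mrpl11 (0.93). The genes outside the set with the most similar course were Polr2g, a subunit of RNA polymerase II (0.981), Siva1, an apoptosis regulator (0.951), Tomm22, a receptor of the mitochondrial import pore (0.948), Psmb7, a proteasome subunit (0.943), and Snrpc, a splicing protein of the U1 particle (0.941). These correlations describe the same libraries, share their depth and scaling, and carry no test. Each member is also part of the mean it was set against, and the share of all genes over 0.5 is not given here.

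The 10 genes most alike had exon lengths of 924 to 3895 bases, the members a median length of 1381 bases, and the 5 genes that ran most opposite, Vps13d, Wdfy3, Lrp1, Cbl and Kmt2c, 11372 to 16305 bases. A score was therefore taken after the data were seen, as the mean of 1618 genes of up to 2193 bases minus the mean of 1617 genes of at least 5143 bases. It ran from -0.51 to -0.02 in vehicle tumours (median -0.32), from -0.42 to 0.09 in dual tumours (median -0.21) and from -0.47 to 0.11 in triple tumours (median -0.30). With it as a covariate, 11 members were higher and 12 lower in dual against vehicle, 7 and 23 in triple against vehicle, and 1 and 16 in triple against dual tumours, with medians of 0.02, -0.10 and -0.12. Of all 18723 genes, 2817 were then higher and 2986 lower, 4466 and 4538, and 1972 and 1738 in the same order. Their medians were -0.03, -0.02 and -0.01. What sets the score apart between tumours was not tested.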

How the data were processed

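Bulk RNA-seq of 24 tumours was used as deposited: log2 CPM values per gene for 18723 genes, which the authors normalized. Per the submitters' processing notes, the tools were STAR 2.7.9a, featureCounts 1.6.0, FastQC 0.11.8, limma and edgeR with build GRCm39, listed without order or settings. Libraries came from a stranded mRNA ligation kit, per the labels' protocols. The deposited log2 values equalled reads plus 0.5 over a scaled library size, and 100% gave whole reads within 0.01 reads. Gene symbols and GRCm39 coordinates came from the deposited table.

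Groups came from the sample labels. All 24 tumours were fitted in limma 3.58.1 (R 4.3.3) with 1 mean per group, a variance trend and the Benjamini-Hochberg method across the whole table. A gene was called where its adjusted p was under 0.05. The fit was tested on simulated data. Fold changes are on the log2 CPM scale and understate changes of genes with few reads. Mouse numbers differ between tumours, and nothing else in the labels says that they came from separate animals, so p-values measure the spread between these tumours. Exon lengths came from GENCODE M21 (GRCm38) by gene ID and promoters from RefSeq. The members, gene lists and tests were chosen with earlier results of these data known. Genes named with full statistics were the 6 members of smallest p in each direction of a comparison and a set given by function, with the 2 genes of smallest p in other lists and further genes chosen after their values were seen. Alternatives were the variance model, tumour and precision weights, fits on 2 groups, a filter on low values (25th percentile), other scalings, a stricter threshold, marker scores as covariates, and tumours left out. No per-sample column of the table was left unused. Figures were drawn with matplotlib 3.10.9 in Python 3.11.15.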

Additional observations from a re-analysis of the deposited data

Results flagged for a closer look

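Of 237 groups of 8 tumours tested for a tumour that stood apart from the rest of its group, 15 were marked, beside about 1 in 20 by chance. In dual tumour D_370_S38 6 members lay far below the other dual tumours, Mrpl13 at a log2 CPM of 5.905, Mrpl15 at 5.786, Mrpl42 at 5.207, Mrps15 at 4.547, Mrps18a at 4.952 and Mrps22 at 4.481. In vehicle tumour C_339_S25 4 members lay far above the other vehicle tumours, Mrpl15 at 6.209, Mrpl3 at 5.957, Mrpl54 at 5.902 and Mrps23 at 5.917. This tumour also had the highest share of mitochondrially encoded mRNAs, 4.81% of reads. In triple tumour T_354_S47 Mrps15 at 5.503 and Mrps18a at 5.883 lay above the others. Single values were Mrpl30 at 5.335 in vehicle tumour C_364_S28, Mrps26 at 5.623 in dual tumour D_344_S33, and Mrps30 at 5.18 in triple tumour T_352_S48, which was the lowest of that group.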

How the results depend on the processing

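No paired analysis was possible because no mouse number occurs in more than 1 group. Of 76 results for named genes, 49 changed their call, or their direction where called, under at least 1 alternative and 27 under none of those run. Of single recomputed values, 2091 were counted as unchanged, 112 lost the call and 55 gained one. A called result turned in 1, Mrps6 in triple against vehicle tumours at 0.465 with the neutrophil score as a covariate. A fold change that turned but was called neither before nor after counted as unchanged. Mrps27 did so in triple against vehicle tumours, from -0.31 to 0.04 without the muscle-rich triple tumours. The unchanged values include 4 for promoter runs searched in 100 bases around the start. Calls over all genes changed as well. In dual against vehicle, 2803 genes higher became 4436 with tumour weights, 2223 with the neutrophil score and 2777 with the proliferation score. In triple against vehicle, 4297 genes higher became 2052 with the muscle score and 747 with the neutrophil score. The 4263 genes lower became 2019 with the muscle score and fell with the neutrophil score too. In triple against dual, 1867 genes lower became 2425 with tumour weights, 568 in the fit on 2 groups and 2976 with median centring. Counts are given below as members higher or lower in limma, beside those reported. In dual against vehicle, 16 higher became 33 with tumour weights, 6 at an adjusted p under 0.01, 9 with the neutrophil score and 7 with the proliferation score. The 3 lower became 7 with tumour weights, 5 in the fit on 2 groups, 5 with quantile normalization, 1 at the stricter threshold and 12 with the short-minus-long gene score, added after the data were seen. In triple against vehicle, 6 higher became 3 with median centring, 2 with the muscle score and 1 with the neutrophil score, and 17 lower became 10 at the stricter threshold, 7 with the muscle score, 1 with the neutrophil score, 27 with the proliferation score and 10 without the muscle-rich triple tumours. In triple against dual, 0 higher became 1 with the filter on low values, median-of-ratios scaling and the neutrophil, proliferation and short-minus-long scores, and 21 lower became 36 with tumour weights, 7 in the fit on 2 groups, 40 with median centring, 5 at the stricter threshold, and 0 with the muscle score and without the muscle-rich tumours. The cause was not tested, other than that the last leaves 3 triple tumours and the stricter threshold calls fewer genes by construction. Median centring moved the median of all genes in triple against dual tumours to -0.10 and quantile normalization moved that in triple against vehicle to -0.11. The members' medians under these scalings were -0.30 and -0.15, beside -0.20 and -0.09 as reported. Those values still contain the shift of all genes.

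Leaving out each tumour in turn gave 11 to 22 higher and 1 to 8 lower in dual against vehicle (medians 0.06 to 0.14), with 1 lower without C_339_S25 or D_357_S37 and 8 without D_344_S33. It gave 5 to 10 higher and 14 to 18 lower in triple against vehicle (medians -0.13 to -0.04), with 10 higher without T_352_S48. It gave 0 to 1 higher and 13 to 31 lower in triple against dual (medians -0.24 to -0.16), with 13 lower without any of D_344_S33, D_366_S34, D_368_S36, T_352_S48 and T_353_S45, and 1 higher without D_344_S33, T_331_S44 or T_355_S43. Depth limits Mrpl53 most, with at most 17 reads.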
